A study of Mus musculus with 4 samples.

Results

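Proliferation genes were followed in back skin of mice that carry the IKKbeta gene (Ikbkb) as a transgene under keratin K5 control. The members are 33 genes: 13 of DNA replication and the start of S phase (Mcm2 to Mcm7, Pcna, Rrm1, Rrm2, Tyms, Cdc6, Ccne1 and Ccne2), 19 of G2 and mitosis (Mki67, Top2a, Cdk1, Ccna2, Ccnb1, Ccnb2, Cdc20, Aurka, Aurkb, Bub1, Bub1b, Plk1, Birc5, Foxm1, Kif11, Kif20a, Nusap1, Tpx2 and Cenpa) and the G1 cyclin gene Ccnd1. Each gene was read from its brightest probe set among those annotated to that gene alone. Of the 33, 32 had such a probe set, out of 18194 genes in all, and Ccnb1 was not analysed here. All 32 passed the filter on dim probe sets, which 13074 genes passed. Mki67, Cdk1, Ccna2 and Foxm1 act in more than one phase and were placed with mitosis.

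RNA was measured on 4 Affymetrix arrays, 2 of K5-IKKbeta transgenic skin and 2 of wild type (WT) skin. All mice were males aged 32 days on a mixed C57BL6 X DBA2 background, and each array held pooled RNA of 3 mice of its genotype. The K5 elements drive expression in basal keratinocytes of epidermis and hair follicle, while the arrays hold RNA of whole skin; the labels name no founder line. With 2 pools per genotype the spread seen is between pools, and fewer cells of a type cannot be told apart from less RNA per cell.

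Dividing cells copy their DNA in S phase and separate the copies in mitosis. E2F factors raise the genes of replication at the start of S phase, while the DREAM complex holds the mitotic genes back until MuvB with Mybl2 and Foxm1 switches them on. In skin, division takes place in the basal epidermis and, while hair grows, in the hair matrix; the mRNAs described here are used widely as markers of it.

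Of 5 Ikbkb probe sets 3 were higher in K5-IKKbeta skin, among them 1454184_a_at at 8.77 and 8.74 against 6.50 and 6.54 in WT skin (log2 scale, limma adjusted p = 1.0e-04 over all probe sets). Basal keratinocyte markers were bright on all arrays, with medians of 11.71 and 11.58 in K5-IKKbeta skin and 11.32 and 11.32 in WT skin. All values below are log2 RMA values, and differences are K5-IKKbeta minus WT unless pools are named. A gene is called higher or lower where limma's p, adjusted by Benjamini-Hochberg over all 13074 genes, is under 0.05.

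Between genotypes, 1 of the 32 proliferation genes was called higher in K5-IKKbeta skin and 0 lower. The background is large: 33.9% of all genes tested were called, 23.4% higher and 10.6% lower, against 3.12% of the proliferation genes. At an unadjusted p under 0.05, 5 were higher (Mcm3, Mcm6, Tyms, Top2a and Cdk1) and 0 lower, where 44.2% of all genes passed that measure and 30.1% were higher. The median difference over the 32 genes was 0.16, beside 0.09 for all genes tested. Arrays of the 2 genotypes overlapped in 21 of the 32, while 69.5% of all genes did not overlap. The 95% intervals of the 31 genes without a call reached 0.693-fold at the lowest (Kif11) and 1.9-fold at the highest (Kif20a), so changes of that size are not excluded for single genes.

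**Figure D1:**
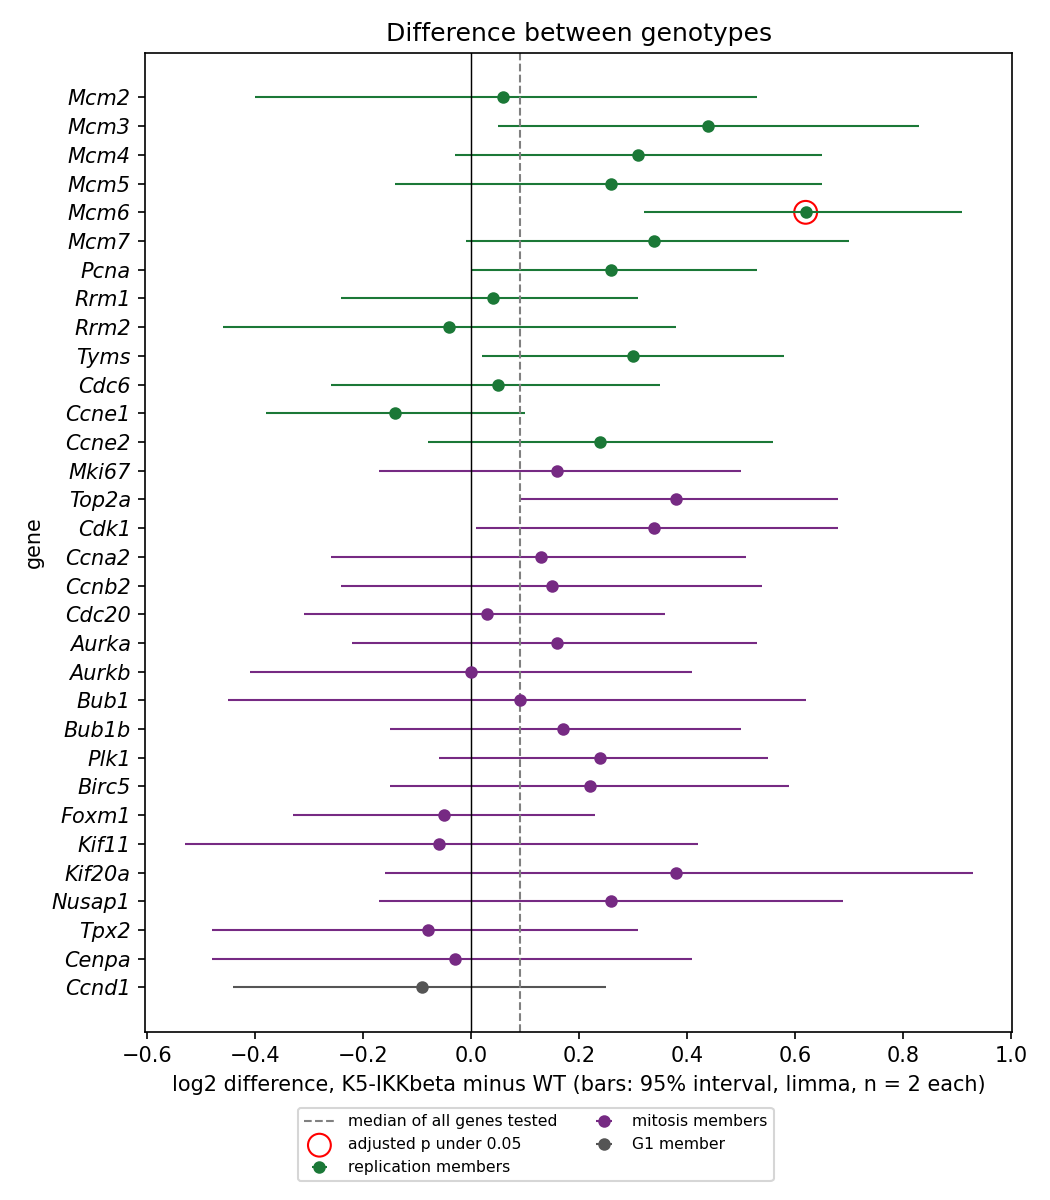
Log2 difference K5-IKKbeta minus WT for each of 32 proliferation genes (points) with its 95% limma interval (bars, n = 2 arrays each); green marks replication, purple mitosis and grey G1, the dashed line the median of all genes tested (0.09), and the red ring an adjusted p under 0.05. Mcm6 at 0.62 carries the ring, and the other points lie between -0.14 and 0.44.

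The gene called was Mcm6, a subunit of the ring-shaped helicase (Mcm2 to Mcm7) that unwinds DNA ahead of the replication fork. It measured 10.54 and 10.65 in K5-IKKbeta skin against 9.85 and 10.10 in WT skin, with both K5-IKKbeta arrays above both WT arrays. The difference was 0.62 ± 0.12 (SE, n = 2 each), which is 1.53-fold (limma adjusted p = 0.011). A dimmer probe set of the same gene, 1438852_x_at, had overlapping arrays: 8.76 and 9.44 in K5-IKKbeta skin against 8.74 and 9.00 in WT skin (difference 0.23, adjusted p = 0.58 over all probe sets). The call was lost with the mean of the gene's probe sets, among them a dim one below the filter (0.37, adjusted p = 0.062). It was also lost without WT 1 (0.49).

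All 6 helicase genes had differences above 0, with a median of 0.33 and a range of 0.06 to 0.62. Mcm3 measured 9.71 and 10.01 in K5-IKKbeta skin against 9.25 and 9.60 in WT skin, without overlap (difference 0.44 ± 0.16 SE, adjusted p = 0.082; 0.24 as the mean of its 5 probe sets). Mcm7 measured 11.23 and 11.54 against 10.92 and 11.16 in WT skin (0.34 ± 0.14, adjusted p = 0.12), and Mcm4 9.81 and 10.08 against 9.50 and 9.76 in WT skin (0.31 ± 0.14, adjusted p = 0.14). In the brightest probe sets of Mcm3, Mcm7 and Mcm4 the lower K5-IKKbeta array lay just above the higher WT array. Their other probe sets above the filter varied. For Mcm3, 1426652_at (0.58) lay above WT, 1426653_at (0.25) and 1449705_x_at (0.11) overlapped, and 1420029_at (-0.17) lay below. For Mcm4, 1436708_x_at (0.18) overlapped. For Mcm7, 1416030_a_at (0.33) did not overlap, whereas 1416031_s_at (0.19) and 1439269_x_at (0.11) did.

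Mcm5 measured 10.16 and 10.54 in K5-IKKbeta skin against 9.97 and 10.22 in WT skin (0.26 ± 0.16, adjusted p = 0.27), and the genotypes overlapped. The Mcm5 probe set 1415945_at, at 0.40 (adjusted p = 0.12 over all probe sets), did not overlap. For Mcm2 the probe sets disagreed as well. Its brightest, 1434079_s_at, measured 9.67 and 10.19 in K5-IKKbeta skin against 9.74 and 9.99 in WT skin (0.06, adjusted p = 0.83), whereas 1448777_at measured 9.42 and 9.63 against 8.94 and 9.21 in WT skin (0.45, adjusted p = 0.085 over all probe sets). With probe sets whose ending marks shared sequence left out, Mcm2 at 0.45 (adjusted p = 0.046) and Mcm3 at 0.58 (adjusted p = 0.025) were called beside Mcm6.

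Since the helicase genes are a standard example of E2F targets, the sequence just before the RefSeq start of 2 of them is shown (assembly GRCm38.p6, 160 bases ending 1 base before the start, 5′ to 3′ on the gene's strand). Mcm6 lies on the minus strand at chr1:128359706-128359865 and Mcm5 on the plus strand at chr8:75109349-75109508. Capitals mark E2F-type letters (TTTGGCGC, TTTCCCGC, TTTGCCGC or TTTCGCGC) and CCAAT, each on either strand.
Mcm6: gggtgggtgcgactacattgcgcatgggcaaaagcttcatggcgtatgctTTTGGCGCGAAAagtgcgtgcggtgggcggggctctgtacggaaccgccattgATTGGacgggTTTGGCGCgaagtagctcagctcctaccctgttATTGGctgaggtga
Mcm5: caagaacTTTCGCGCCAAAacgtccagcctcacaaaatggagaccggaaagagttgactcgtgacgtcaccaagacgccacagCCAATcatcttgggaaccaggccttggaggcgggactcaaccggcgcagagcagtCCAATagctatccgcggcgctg
In each stretch a match on one strand overlaps a match on the other, giving 12 capitals in a row, and Mcm6 has 1 further match nearer the start. Over the whole windows (250 bases before to 50 after the start), 5 of 11 replication genes with a window and 1 of 14 mitosis genes held an E2F-type match, as did 2.26% of all 32851 windows. CCAAT was found in 8 of the 11 replication genes and in 37.4% of all windows. Matches are letters in a window and do not show binding.

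Pcna, the sliding clamp that holds DNA polymerase on its template, measured 12.41 and 12.48 in K5-IKKbeta skin against 12.09 and 12.28 in WT skin (difference 0.26 ± 0.11 SE, adjusted p = 0.12). Its arrays did not overlap. Tyms, which makes the thymidine nucleotide, lay close to the filter at 6.33, with 6.72 and 6.96 in K5-IKKbeta skin against 6.57 and 6.50 in WT skin (0.30 ± 0.12, adjusted p = 0.097). The 2 subunits of ribonucleotide reductase, which makes deoxynucleotides, differed between genotypes by less than their error. Rrm1, the large subunit, measured 10.05 and 10.22 in K5-IKKbeta skin against 10.02 and 10.18 in WT skin (0.04, 95% interval -0.24 to 0.31). Rrm2, the small subunit made in S phase, measured 10.50 and 10.93 against 10.63 and 10.88 in WT skin (-0.04, interval -0.46 to 0.38).

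Of the genes that start replication, Cdc6, which loads the helicase onto origins, measured 7.71 and 7.99 in K5-IKKbeta skin against 7.78 and 7.83 in WT skin (0.05, adjusted p = 0.81). The E-type cyclin genes, partners of Cdk2 at the entry to S phase, differed in sign. Ccne1 measured 8.26 and 8.31 in K5-IKKbeta skin against 8.37 and 8.49 in WT skin (-0.14, adjusted p = 0.32). Among brightest probe sets it alone had both K5-IKKbeta arrays below both WT arrays, and its dimmer 1416492_at overlapped (-0.04). Dimmer probe sets above the filter also lay below WT in Kif11 (1452315_at, -0.32), Bub1b (1447362_at, -0.21) and Mcm3 (1420029_at, -0.17). Ccne2 measured 7.47 and 7.78 against 7.43 and 7.34 in WT skin (0.24, adjusted p = 0.21). Over the 13 replication genes 11 differences were above 0, where 60.9% of all genes were, with a median of 0.26. In 7 of them both K5-IKKbeta arrays lay above both WT arrays, where 45.2% of all genes did so.

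Among mitosis genes 0 of 18 were called in either direction, and 2 were higher at an unadjusted p under 0.05 (Top2a and Cdk1). Of all genes, 33.9% were called, and 30.1% were higher at that unadjusted p. The median difference of the mitosis genes was 0.15, beside 0.09 for all genes, with a range of -0.08 to 0.38. Differences were above 0 in 14 of 18, where 60.9% of all genes were. Top2a, the topoisomerase that untangles replicated chromosomes, came nearest to the threshold at 11.06 and 11.29 in K5-IKKbeta skin against 10.72 and 10.86 in WT skin, without overlap (0.38 ± 0.12 SE, adjusted p = 0.054). It was called with the 60th percentile filter (adjusted p = 0.044) and with the trend and robust settings of limma (adjusted p = 0.033). Its other probe set above the filter, 1442454_at, overlapped, at 8.20 and 8.62 in K5-IKKbeta skin against 8.23 and 8.39 in WT skin (0.10, adjusted p = 0.76 over all probe sets). The mean of the gene's probe sets, among them a dim one below the filter, gave 0.11 (adjusted p = 0.47). Cdk1, the kinase that drives entry into mitosis, measured 9.85 and 10.17 against 9.59 and 9.74 in WT skin, also without overlap (0.34 ± 0.14, adjusted p = 0.11).

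The cyclin partners of Cdk1 overlapped between genotypes. Ccna2, cyclin A of S and G2 phase, measured 9.91 and 10.32 in K5-IKKbeta skin against 9.90 and 10.07 in WT skin (0.13, adjusted p = 0.58), and Ccnb2, a B-type cyclin of mitosis, 9.71 and 10.13 against 9.69 and 9.85 in WT skin (0.15, adjusted p = 0.52). Mki67, which coats mitotic chromosomes and is the standard marker of cycling cells, measured 11.21 and 11.47 in K5-IKKbeta skin against 11.05 and 11.30 in WT skin. Its difference was 0.16 ± 0.14 (SE, adjusted p = 0.41), with an interval of -0.17 to 0.50. Foxm1, a transcription factor of mitotic genes, measured 8.39 and 8.44 against 8.58 and 8.35 in WT skin (-0.05, adjusted p = 0.77). Its other probe sets above the filter were at -0.06 (1417748_x_at) and 0.31 (1448834_at). The latter measured 7.81 and 8.14 against 7.64 and 7.69 in WT skin, without overlap (adjusted p = 0.21 over all probe sets).

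Kinases and checkpoint genes behaved alike in that the lower K5-IKKbeta array lay near or under the WT arrays and the higher one above them. Plk1, a kinase of spindle formation, measured 9.28 and 9.56 in K5-IKKbeta skin against 9.15 and 9.21 in WT skin (0.24, adjusted p = 0.19) and did not overlap. The Aurora kinases did: Aurka, of the spindle poles, measured 8.42 and 8.83 against 8.43 and 8.52 in WT skin (0.16, adjusted p = 0.48), and Aurkb, of the chromosomal passenger complex, 8.22 and 8.67 against 8.34 and 8.54 in WT skin (0.00, interval -0.41 to 0.41). Birc5 (survivin), of the same complex, had a difference of 0.22 (adjusted p = 0.31). Bub1 and Bub1b, of the spindle checkpoint, had differences of 0.09 and 0.17, and Cdc20, the activator of the ligase that ends mitosis, of 0.03. The genotypes overlapped in all 4 of these.

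For spindle and centromere genes, Kif20a, a kinesin of cell division, measured 8.13 and 8.74 in K5-IKKbeta skin against 7.88 and 8.22 in WT skin (0.38 ± 0.22 SE, adjusted p = 0.24). Its wide pool spread goes with a difference as large as that of Top2a. Nusap1, which bundles spindle microtubules, was at 0.26 (adjusted p = 0.30). The mean with its dim probe set, which lay below the filter, was 0.03. Kif11, the kinesin that pushes spindle poles apart, was at -0.06, and Cenpa, the histone variant of centromeres, at -0.03. Tpx2, a spindle assembly factor, was at -0.08 (0.24 in its probe set 1428105_at, and -0.08 and -0.09 in dimmer ones). All 5 overlapped between genotypes, as did Ccnd1, the D-type cyclin of G1, at 10.86 and 11.15 in K5-IKKbeta skin against 10.99 and 11.21 in WT skin (-0.09, adjusted p = 0.65).

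Mitotic promoters are known for a cell cycle homology region (CHR, letters TTTGAA or TTCGAA) bound by DREAM and MuvB, often beside CCAAT, the site of NF-Y. Stretches of 4 members are shown for this layout, cut as above, with the capitals marking CHR, CCAAT and E2F-type letters on either strand. They are Cdk1 (chr10:69352913-69353072, minus strand), Cdc20 (chr4:118437344-118437503, minus), Top2a (chr11:99024190-99024349, minus) and Kif11 (chr19:37376222-37376381, plus).
Cdk1: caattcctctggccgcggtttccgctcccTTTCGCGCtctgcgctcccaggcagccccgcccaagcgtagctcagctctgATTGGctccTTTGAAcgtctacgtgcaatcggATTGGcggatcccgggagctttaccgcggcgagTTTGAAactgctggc
Cdc20: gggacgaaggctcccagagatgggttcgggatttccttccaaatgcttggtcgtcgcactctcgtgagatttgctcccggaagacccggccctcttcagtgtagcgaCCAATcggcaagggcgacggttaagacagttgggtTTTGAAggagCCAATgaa
Top2a: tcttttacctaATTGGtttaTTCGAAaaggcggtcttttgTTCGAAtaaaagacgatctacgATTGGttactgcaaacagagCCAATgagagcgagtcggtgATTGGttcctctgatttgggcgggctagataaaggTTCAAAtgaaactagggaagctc
Kif11: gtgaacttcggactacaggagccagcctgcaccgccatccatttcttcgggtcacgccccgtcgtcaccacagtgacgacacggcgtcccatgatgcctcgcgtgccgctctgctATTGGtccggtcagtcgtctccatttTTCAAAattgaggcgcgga
All 4 hold a CHR and CCAAT in this stretch, on either strand, and Cdk1 also holds E2F-type letters. Of the 14 mitosis genes with a window, 11 held both a CHR and CCAAT, against 2 of 11 replication genes and 7.52% of all windows. A CHR alone was in 19.2% of all windows. These 4 genes differed in their genotype difference (0.34, 0.03, 0.38 and -0.06 in the order shown) while each was higher in K5-IKKbeta pool 2 than in pool 1 (by 0.32, 0.30, 0.23 and 0.53).

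Pools of one genotype differed in these genes as well. In K5-IKKbeta skin pool 2 was above pool 1 in 32 of 32 proliferation genes, where 51.2% of all genes were, and the median gap was 0.31, beside 0.01 for all genes tested. In WT skin pool 2 was above pool 1 in 29 of 32, where 62.7% of all genes were, with a median gap of 0.20, beside 0.05. The exceptions in WT skin were Tyms (-0.06), Ccne2 (-0.09) and Foxm1 (-0.23, with -0.12 and 0.05 in its other probe sets above the filter). The labels do not tie pools of equal number to each other, and with 1 array per pool these gaps have no test.

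Gaps between pools were largest among mitosis genes of K5-IKKbeta skin. There the median gap was 0.41 (range 0.05 to 0.64) over 18 mitosis genes and 0.29 (range 0.05 to 0.52) over 13 replication genes, and in WT skin 0.17 and 0.24. Of all genes tested, 4.81% had a gap in K5-IKKbeta skin above the mitosis median. Bub1 had the widest gap, with K5-IKKbeta pools at 8.61 and 9.26 and WT pools at 8.73 and 8.96. In 16 of 18 mitosis genes and 6 of 13 replication genes the gap between K5-IKKbeta pools exceeded the difference between genotypes. It did so in 31.4% of all genes. A gap sets single arrays against each other, whereas the genotype difference sets means of 2 arrays, so these are unlike measures. Mcm6 and Pcna were among the genes with narrow gaps in K5-IKKbeta skin, at 0.11 and 0.06.

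**Figure D2:**
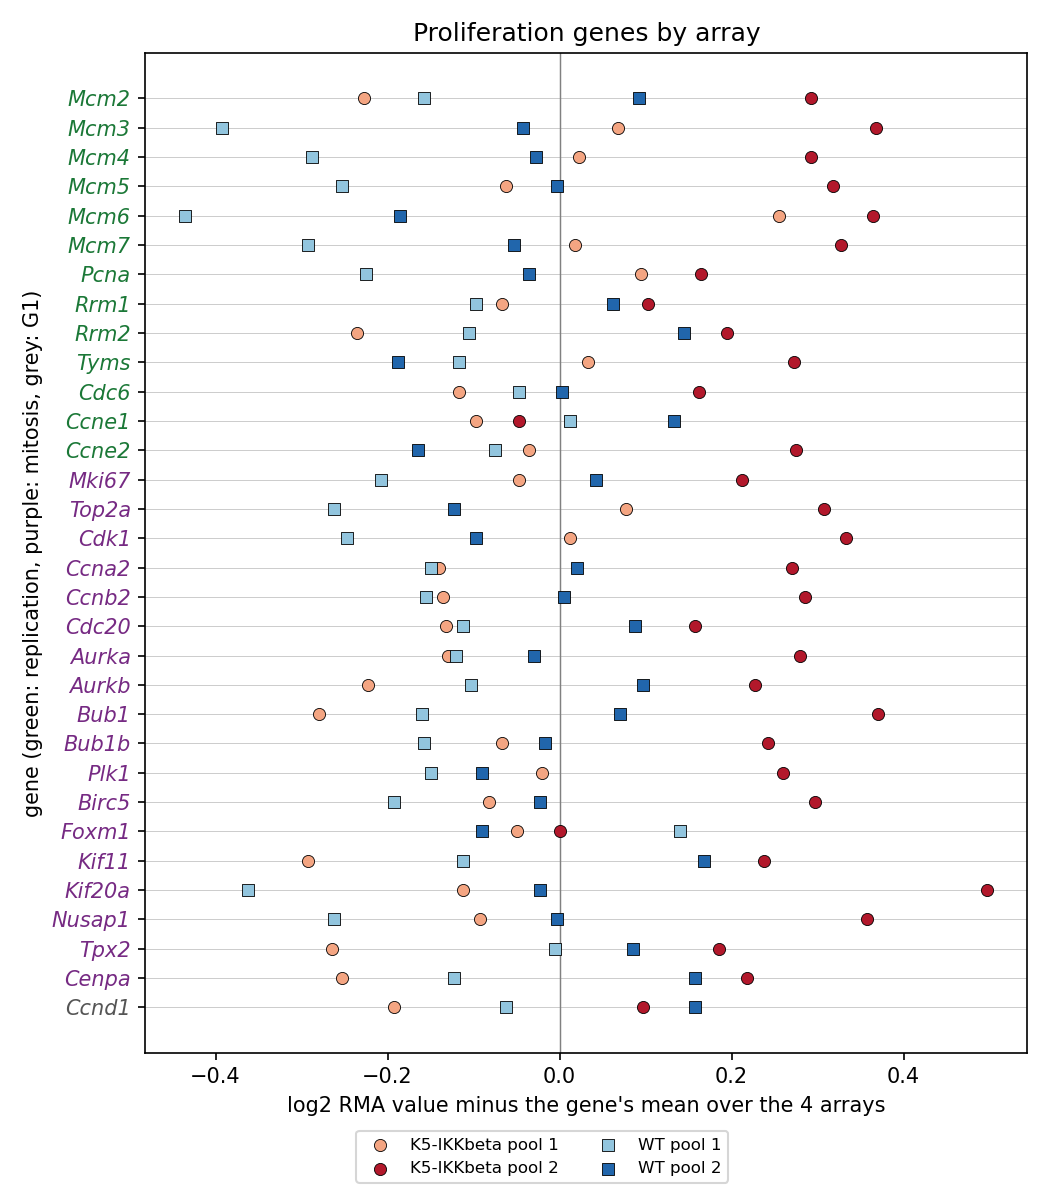
Log2 RMA value of each proliferation gene on each array, minus the gene's mean over the 4 arrays (circles K5-IKKbeta pools 1 and 2, squares WT pools 1 and 2; gene names green for replication, purple for mitosis, grey for G1). K5-IKKbeta pool 2 lies to the right of K5-IKKbeta pool 1 in 32 of 32 genes, where 51.2% of all genes are higher in pool 2. K5-IKKbeta and WT symbols are apart in 11 of 32, where 69.5% of all genes do not overlap.

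**Figure D3:**
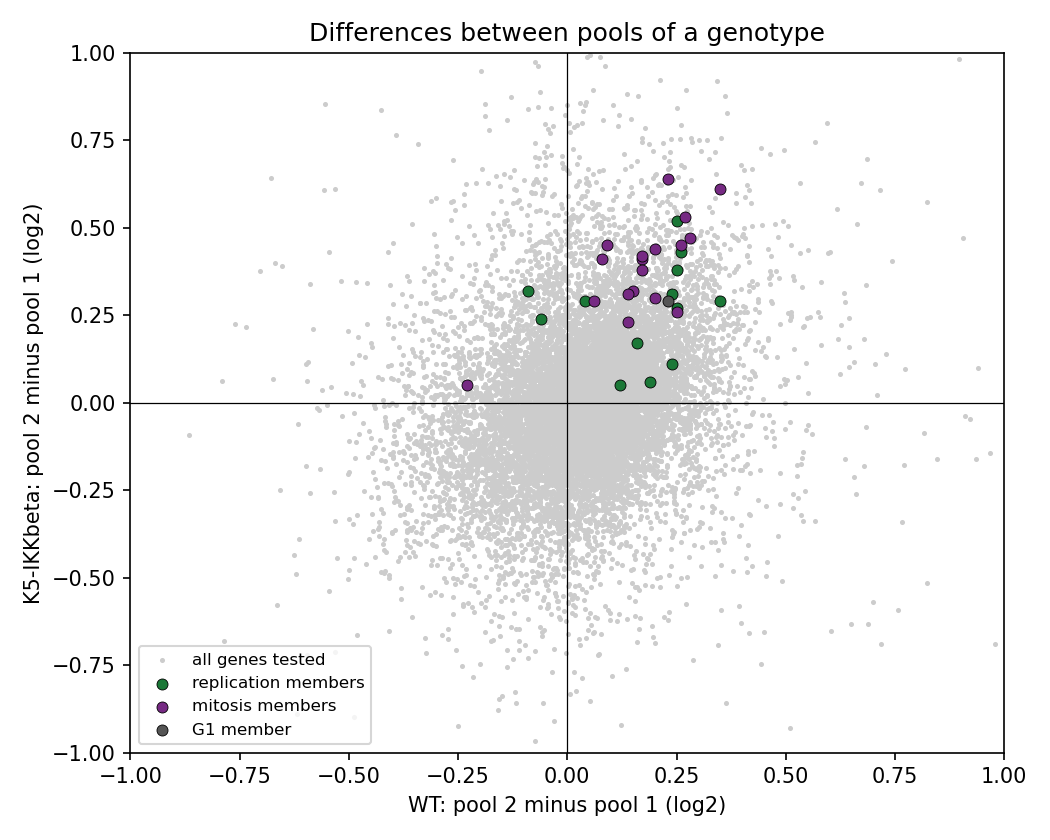
Gap between pools (pool 2 minus pool 1, log2) in K5-IKKbeta skin (vertical) against WT skin (horizontal) for all genes tested (light grey) and for replication, mitosis and G1 genes (colours); 56 genes lie outside the axes, which end at 1.0. All 32 proliferation genes lie above the horizontal line, and 29 also lie right of the vertical line, where 36.8% of all genes lie in that quadrant.

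Of the 32 other probe sets of these genes that lay above the filter, 27 were higher in K5-IKKbeta pool 2 and 27 in WT pool 2, and of 12 below it 5 and 7. The gap was also seen in pathway genes outside the set of 33, in lists written with earlier results of these arrays known. As background, 51.2% of all genes were higher in K5-IKKbeta pool 2 (median gap 0.01) and 62.7% in WT pool 2 (0.05). Of 57 other mitosis genes 54 were higher in K5-IKKbeta pool 2 (median gap 0.36) and 50 in WT pool 2 (0.14), and of 38 other replication genes 34 (0.17) and 37 (0.19). Hair matrix markers went the same way. Of 10, 9 were higher in K5-IKKbeta pool 2 (median gap 0.25) and 9 in WT pool 2 (0.13). Hair shaft keratins did so in K5-IKKbeta skin, with 9 of 11 (0.36). In WT skin 7 of 11 were higher (0.05), which is near the share and median of all genes. Fibroblast markers were higher in pool 2 in 6 of 6 in K5-IKKbeta skin (0.15) and 0 of 6 in WT skin (-0.11). Basal keratinocyte markers went the other way, with 1 of 8 higher in K5-IKKbeta pool 2 (median gap -0.28) and 3 of 8 in WT pool 2 (-0.07). Keratins of hyperproliferative epidermis were higher in pool 2 in 0 of 4 in both genotypes (-0.24 in K5-IKKbeta skin and -0.05 in WT skin), and T cell markers in 0 of 5 in K5-IKKbeta skin (-0.23) and 1 of 5 in WT skin (-0.15). The part of these cell types in the gap was not tested.

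The phases were compared array by array, each gene taken as its distance from its own mean over the 4 arrays. The median distance of the mitosis genes was -0.12 and 0.27 in K5-IKKbeta pools 1 and 2 and -0.15 and 0.00 in WT pools 1 and 2. That of the replication genes was -0.04 and 0.28 in the K5-IKKbeta pools and -0.16 and -0.03 in the WT pools. Mitosis minus replication was thus -0.08 and -0.01 in K5-IKKbeta skin and 0.00 and 0.03 in WT skin. As medians of the genotype differences, mitosis (0.15) minus replication (0.26) gave -0.10. Both K5-IKKbeta arrays lay below both WT arrays in mitosis minus replication, but the nearest, at -0.01 and 0.00, lay closer than its spread between pools (SD 0.04). That spread was narrower than that of the mitosis median itself (SD 0.21), since subtracting 2 medians that shift together between pools removes their shared shift. With 2 against 2 arrays an exact permutation test cannot go below p = 0.33.

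The count of calls rested on single arrays. Without K5-IKKbeta 1, 13 of 32 proliferation genes were called higher (40.6%, where 23.0% of all genes were called higher in that fit): Mcm3, Mcm4, Mcm5, Mcm6, Mcm7, Tyms, Ccne2, Top2a, Cdk1, Plk1, Birc5, Kif20a and Nusap1. The median difference was then 0.40 for replication and 0.34 for mitosis genes. Without K5-IKKbeta 2, Mcm6 alone was called, and the medians were 0.08 and -0.05. Without WT 1, 0 were called, and without WT 2, Mcm6. Of all genes, 23.7%, 12.0% and 12.1% were called higher in those 3 fits. In each of them the lone array was taken to vary like the other genotype.

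Other ways of handling the arrays gave 0 to 5 proliferation genes called higher. They were 2 with the 60th percentile filter and 2 with limma's trend and robust settings, where 26.1% and 24.6% of all genes were called higher. They were 0 where a gene's probe sets were averaged and 3 without probe sets of shared sequence, where 21.9% and 22.8% of all genes were. With quantile normalization repeated, with each array centred on its median and with no filter, Mcm6 alone was called, where 19.7%, 20.9% and 16.3% of all genes were. With the replicate number as a block, for which the labels give no ground, 5 were called, where 23.6% of all genes were.

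Other genes of replication were mostly without a call. Of 38 tested, 5 were higher and 0 lower (13.2% of the list, median difference 0.21): Cdc7, a kinase that fires origins, Pold2, a subunit of DNA polymerase delta, Lig1, the ligase that joins Okazaki fragments, Cdt1, which loads the helicase with Cdc6, and Rpa2, which binds single-stranded DNA. Cdc7 measured 8.77 and 9.01 in K5-IKKbeta skin against 8.27 and 8.35 in WT skin (0.58, adjusted p = 0.012). The other 4 called had differences of 0.38 to 0.48. Differences were above 0 in 30 of the 38, where 60.9% of all genes were. Cdc45, not called, was at -0.31 (adjusted p = 0.051), with both K5-IKKbeta arrays below both WT arrays, and Dbf4 was at -0.35 with overlap. Of 57 other mitosis genes 3 were higher and 0 lower (5.26%, median 0.10), where 23.4% of all genes were called higher. They were Pimreg, a mitotic regulator (0.65, adjusted p = 0.02), Ttk, a checkpoint kinase (0.52, adjusted p = 0.012), and Cdc25b, a phosphatase that activates Cdk1 (0.51, adjusted p = 0.016). All of these calls in both lists were lost without WT 1, and all but that of Pold2 without WT 2. Those of Cdt1, Lig1 and Rpa2 were lost without K5-IKKbeta 2. The median of the replication list was 0.12 without WT 1, 0.27 without WT 2, 0.26 without K5-IKKbeta 1 and 0.13 without K5-IKKbeta 2. That of the mitosis list was 0.04, 0.15, 0.27 and -0.04 in the same order. The calls of Cdt1 and Rpa2 were also lost with the mean of probe sets (adjusted p = 0.064 and 0.11). That of Rpa2 was lost too with no filter (0.054), with quantile normalization repeated (0.061) and with median centring (0.057). In the replication list 1 gene was called lower with quantile normalization repeated, and 1 with median centring.

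Among regulators that act before S phase, Ccnd3, a D-type cyclin, measured 10.25 and 10.21 in K5-IKKbeta skin against 9.37 and 9.39 in WT skin (0.85 ± 0.09 SE, adjusted p = 0.0012). Its kinase partner Cdk6 measured 10.45 and 10.49 against 9.58 and 9.67 in WT skin (0.85 ± 0.10, adjusted p = 0.0014). Both rose, by 1.8-fold, and both were called whichever single array was left out. They were the 2 genes called of 8 in the list of G1 cyclins, CDKs and Myc genes (25% of it, where 33.9% of all genes were called and 23.4% were higher), in which Ccnd2, Cdk2, Cdk4, Cdc25a, Myc and Mycn were not called.

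Of 9 CDK inhibitors and pocket proteins 3 were higher and 2 lower (55.6% of the list, beside the 33.9% of all genes). Rb1, the retinoblastoma protein that holds E2F factors, measured 9.62 and 9.72 in K5-IKKbeta skin against 10.30 and 10.54 in WT skin (-0.75 ± 0.12 SE, adjusted p = 0.0052). Cdkn1c, the inhibitor p57, measured 9.47 and 9.68 against 8.88 and 8.80 in WT skin (0.73 ± 0.11, adjusted p = 0.0041). Both genes were called whichever single array was left out. Cdkn1a, the p53 target p21, measured 11.40 and 11.07 against 11.81 and 11.79 in WT skin (-0.57, adjusted p = 0.02), a call lost without WT 1 (adjusted p = 0.11) and without WT 2 (adjusted p = 0.1). Rbl2, a pocket protein of the DREAM complex, was at 0.39 (adjusted p = 0.028, and 0.19 without WT 1, 0.095 without WT 2, 0.067 without K5-IKKbeta 1 and 0.056 with quantile normalization repeated), and Cdkn2c, an inhibitor of Cdk4 and Cdk6 named as the fifth call of the list, at 0.37 (adjusted p = 0.029, and 0.15 without WT 1, 0.15 without WT 2 and 0.077 without K5-IKKbeta 2).

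Among 15 E2F and DREAM genes 1 was higher and 3 lower (26.7% of the list, which is below the 33.9% of all genes). Mybl2, which joins MuvB to switch on mitotic genes, measured 7.25 and 7.24 in K5-IKKbeta skin against 8.25 and 8.10 in WT skin (-0.93 ± 0.10 SE, adjusted p = 0.0012), and it was called whichever single array was left out. E2f2 measured 8.27 and 8.37 against 8.91 and 9.26 in WT skin (-0.76, adjusted p = 0.0087, and 0.051 without WT 2). E2f3 was at -0.43 (adjusted p = 0.04), and E2f1 at 0.37 (adjusted p = 0.024); these are activating E2F factors. The E2f1 call was lost without WT 1 (0.40, adjusted p = 0.12), without WT 2 (0.35, adjusted p = 0.16) and with the mean of its probe sets (0.19, adjusted p = 0.18). That of E2f3 was lost without WT 1 (adjusted p = 0.07), without WT 2 (adjusted p = 0.23) with no filter (adjusted p = 0.054) and once K5-IKKbeta 1 was omitted (adjusted p = 0.093).

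**Figure D4:**
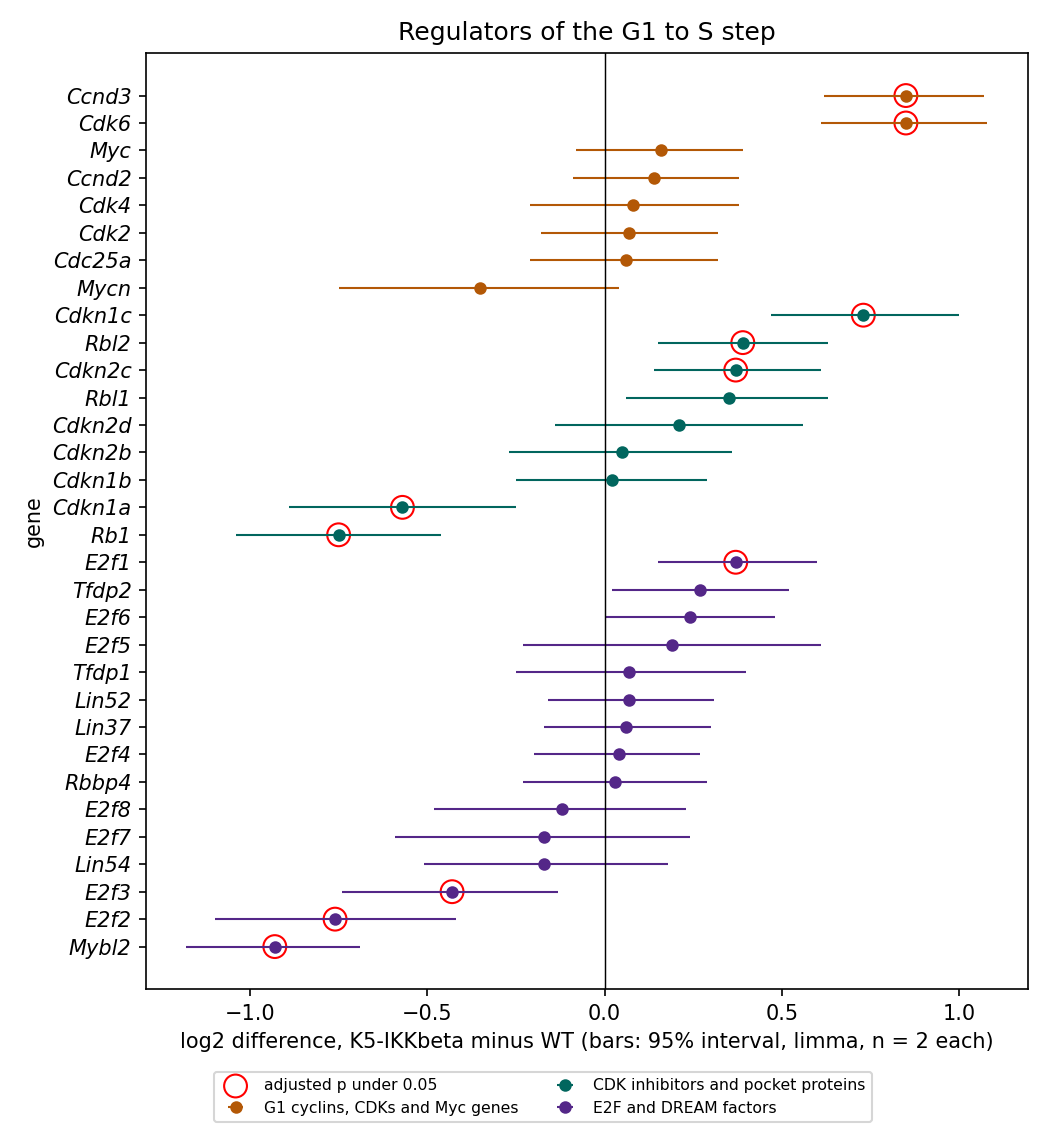
Log2 difference K5-IKKbeta minus WT (points, with 95% limma intervals, n = 2 arrays each) for G1 cyclins, CDKs and Myc genes, CDK inhibitors and pocket proteins, and E2F and DREAM factors; red rings mark an adjusted p under 0.05. Ccnd3 and Cdk6 at 0.85 lie farthest to the right, and Mybl2 at -0.93 farthest to the left.

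Markers of the tissue around these genes differed between genotypes as well. Hair matrix markers were lower in 6 of 10 and higher in 1 (median difference -0.99), where 10.6% of all genes were lower and 23.4% higher. Foxn1 was at -2.85, Msx2 at -2.32, Hoxc13 at -1.96 and Dlx3 at -1.70. Wnt10a was the higher one at 0.60 (adjusted p = 0.016), and Shh, not called, was at 0.32. Both had their K5-IKKbeta arrays above both WT arrays. The Wnt10a call was lost without WT 1 (0.55) and without WT 2 (0.64). Without WT 2 the calls of Lef1 (-1.04) and Msx1 (-0.65) were lost too. Hair shaft keratins were lower in 11 of 11 (median -5.88), with Krt86, Krt34, Krt33a and Krt31 at -7.03 to -6.16. Of 8 basal keratinocyte markers Itga3 was at -0.34 (adjusted p = 0.068), with both K5-IKKbeta arrays below both WT arrays. With no filter 3 of the 8 were called higher, with quantile normalization repeated 2, and with median centring 3 higher and 1 lower. In the main setting 5 of the 8 were higher (median 0.46), where 23.4% of all genes were. Col17a1 was at 0.62, Krt14 at 0.53, Krt5 and Itgb4 at 0.49, and Itga6 at 0.35. Calls of all 5 were lost without WT 1 and without WT 2 (adjusted p = 0.085 to 0.2), and those of Krt5, Krt14, Itga6 and Itgb4 without K5-IKKbeta 1 (adjusted p = 0.054 to 0.1). Of the keratins of hyperproliferative epidermis, Krt16 was at 3.22 and Krt6b at 2.45, while Krt6a was at -0.78 (adjusted p = 0.0093, and 0.064 without WT 1 and 0.057 without WT 2). Krt17, not called, was at -0.20 (adjusted p = 0.18). Both K5-IKKbeta arrays lay above both WT arrays in 2 of these 4 keratins and below them in 2. The array medians of the 4 were 12.00 and 11.64 in K5-IKKbeta skin and 10.61 and 10.59 in WT skin.

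Among markers of other cell types that can divide, those of macrophages were all called and those of the other types in part. Of all genes tested, 23.4% were called higher. Macrophage markers were higher in 8 of 8 (median difference 1.06), with array medians of 8.52 and 8.77 in K5-IKKbeta skin and 7.69 and 7.70 in WT skin. Of T cell markers 5 of 10 were tested and 2 were higher (median 0.40), Cd3g at 1.17 and Cd3d at 0.63; the medians were 7.75 and 7.52 in K5-IKKbeta skin and 7.22 and 6.93 in WT skin. The B cell genes Cd79a, Cd79b and Ms4a1 lay below the filter, and Blnk, which macrophages also express, was at 0.84. Fibroblast markers were higher in 3 of 6 (Pdgfra at 1.30, Lum at 1.09 and Dcn at 0.70) and endothelial markers in 3 of 5 (Pecam1 at 1.01, Tie1 at 0.64 and Tek at 0.38). With an array left out, list medians ranged over 1.01 to 1.10 for macrophage and 0.40 to 0.57 for fibroblast markers. They ranged over 0.18 to 0.62 for T cell and 0.39 to 0.53 for endothelial markers. The calls of Cd68, Fcgr1, Dcn, Cd3d, Tek and Tie1 were lost in some of these fits. The part of any of these cell types in the levels of the proliferation genes was not tested.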

How the data were processed

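The authors deposited 1 log2-scale expression value per probe set and array, made with RMA per the submitters' processing notes, which give no version or log base; they were read as log2 from their range. RNA input was 5 micrograms per array, per the labels' protocols. Of 45101 probe sets, 34958 had 1 gene symbol, 932 several and 9211 none; 34754 matched the RefSeq gene table (GRCm38.p6) by identifier. The brightest probe set by mean stood for each gene, and genes above the 40th percentile (6.33) were tested.

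The limma package (3.58.1, under R 4.3.3), with genotype alone in the linear model and two-sided moderated tests, gave differences, 95% intervals and p-values, adjusted by Benjamini-Hochberg over 13074 genes, with 4.00 prior and 2 residual degrees of freedom; a second fit covered all probe sets. On simulated data with 50 genes changed at each size, the procedure recovered 0 at 1.25-fold, 7 at 1.5-fold, 44 at 2-fold and 50 at 4-fold. There 106 of 13074 genes were called, against 4436 in the data, and fewer calls make the Benjamini-Hochberg adjustment stricter. Lists got counts and medians, with no set test. Members, lists and named genes were chosen with earlier results of these data known: all members are named, and of every other list up to 4 called genes by size of difference, with further ones where 5 or fewer were called. Replicate numbers were not taken as pairing, since the labels tie no pools and there are 2 pairs (deviations correlated at 0.25 over tested genes). The number of arrays limits the precision, and RMA can compress changes. Alternatives concerned the filter, choice of probe sets, scaling, limma's settings, a replicate block and each array left out. The mean of a gene's probe sets took in those below the filter. Promoter windows came from RefSeq for 25 of 33 members; none was used for Aurkb, Ccna2, Ccnd1, Ccne2, Foxm1, Kif20a, Mcm4 and Tpx2. Detection calls and batches were not given in the sources used here.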

Additional observations from a re-analysis of the deposited data

How the results depend on the processing

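The count of proliferation genes called higher was 1, and 0 were called lower under every alternative run. The higher count was 2 with the 60th percentile filter and with trend and robust settings (Top2a beside Mcm6), 0 with the mean of all probe sets, 3 without probe sets of shared sequence, 5 with the replicate block (Mcm3, Mcm4, Mcm6, Mcm7 and Top2a; the labels give no pairing), and 0 to 13 with an array left out. With arrays left out, the replication median ranged over 0.08 to 0.40, the mitosis median over -0.05 to 0.34, and mitosis minus replication over -0.14 to -0.05; the last was -0.16 with the mean of probe sets and -0.15 without shared-sequence sets. The replicate block left these medians as they were, at 0.26, 0.15 and -0.10. Single genes near 0 changed sign, none of them called in the setting where its sign changed. With the mean of probe sets Cdc20 was at -0.03, Aurkb at -0.01, Bub1 at -0.15, Foxm1 at 0.05 and Cenpa at 0.06, and Cenpa was at 0.15 without shared-sequence sets. With quantile normalization again Mcm2 was at -0.01, Rrm1 at -0.03, Cdc6 at -0.02, Cdc20 at -0.03, Aurkb at -0.08 and Bub1 at -0.00, and with median centring Rrm1 at -0.00, Cdc20 at -0.01 and Aurkb at -0.04. With an array left out, ranges were -0.20 to 0.32 for Mcm2, -0.04 to 0.12 for Rrm1, -0.25 to 0.18 for Rrm2, -0.10 to 0.19 for Cdc6, -0.08 to 0.33 for Ccna2, -0.06 to 0.36 for Ccnb2, -0.12 to 0.18 for Cdc20, -0.05 to 0.36 for Aurka, -0.22 to 0.22 for Aurkb, -0.24 to 0.41 for Bub1, -0.16 to 0.06 for Foxm1, -0.32 to 0.21 for Kif11, -0.31 to 0.15 for Tpx2, -0.27 to 0.20 for Cenpa and -0.24 to 0.05 for Ccnd1. The cause of these shifts was not tested. Groups of 2 pools limit every value, and signal over background could not be judged without detection calls.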
